A study of Homo sapiens with 12 samples.

Results

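The genes described here are 43 genes of glycolysis and the hypoxia response, among 24916 Ensembl gene IDs measured on 12 Affymetrix arrays. They were taken from a list of gene IDs with their symbols, and all 43 IDs were present in the data. The list holds the glucose transporter SLC2A1, the enzymes that turn glucose into lactate, regulators of this route, the hypoxia-inducible factor (HIF) subunits HIF1A and EPAS1, the oxygen sensors EGLN1 and EGLN3, and further genes known as HIF targets. RNA came from SW480 ADH cells, the adherent population of a human colon carcinoma line called SW480, kept for 72 h in serum-containing medium. Cells were mock transfected (Mock) or received SPRY2, the gene of Sprouty2, a protein that tunes signals from growth factor receptors. The introduced SPRY2 was the wild type (WT), the S112A mutant (serine to alanine) or the Y55F mutant (tyrosine to phenylalanine). Each of the 4 groups held 3 arrays, and the labels state neither an oxygen level nor whether a construct was studied in a clone or a pool of cells. The level of SPRY2 and markers of the cell line were not analysed here.

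Glycolysis splits glucose into pyruvate, and lactate dehydrogenase turns pyruvate into lactate, so that the route can run without oxygen. When oxygen is plentiful, prolyl hydroxylases of the EGLN family mark the HIF alpha subunits for destruction. When it is scarce, the subunits persist and raise transcription of glycolytic enzymes, of VEGFA and of other genes, EGLN3 among them. HIF alpha subunits are therefore regulated mainly as proteins, and an array reads only their RNA. Colon carcinoma cells commonly run glycolysis at a high rate also in the presence of oxygen.

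Values are the deposited log2 expression values, on which a difference of 1 is a 2-fold change. Array medians lay between 7.2 and 7.32 and the highest value of each array between 14.00 and 14.12. Correlations across gene IDs were 0.995 to 0.998 within groups and 0.985 to 0.994 between groups. Differences were tested with limma across all gene IDs, with a Benjamini-Hochberg adjusted p below 0.05 as the threshold, and errors given after ± are SDs over 3 arrays unless marked SE. Levels are compared between groups for 1 gene at a time and not between genes, since each gene is read by its own probes. In bulk RNA, fewer cells that express a gene and less RNA per cell cannot be told apart.

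The widest differences lay in a small set of hypoxia response genes. DDIT4, ANKRD37, EPAS1, VEGFA, EGLN3 and NDRG1 had the widest spreads of group means, 2.29, 1.62, 1.21, 1.06, 0.92 and 0.92 on the log2 scale, and GAPDH the narrowest, 0.02. DDIT4, ANKRD37 and VEGFA were each lowest in WT and highest in S112A cells, with Mock below Y55F for DDIT4 and above it for ANKRD37 and VEGFA. EPAS1 was lowest in WT and highest in Y55F cells. In limma's moderated F test 21 of the 43 genes, 48.8%, differed among the groups, where 29.3% of all gene IDs did. The genes are mostly well expressed, 41 of them outside the 33.3% of IDs with the lowest mean, and of the IDs outside that range 41.7% passed. For the 18 genes from SLC2A1 through the enzymes to lactate the median spread of group means was 0.15, for the 25 others 0.29 and for all gene IDs 0.17. Of these 18 genes 7 (38.9%) passed the F test, and of the 25 others 14 (56%), beside the 29.3% and 41.7% given above. The highest and lowest group mean were less than 1.2-fold apart in 12 of the 18, 66.7%, a share near that of all gene IDs, 65.3%, and above the 51.3% of the better expressed ones.

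**Figure D1:**
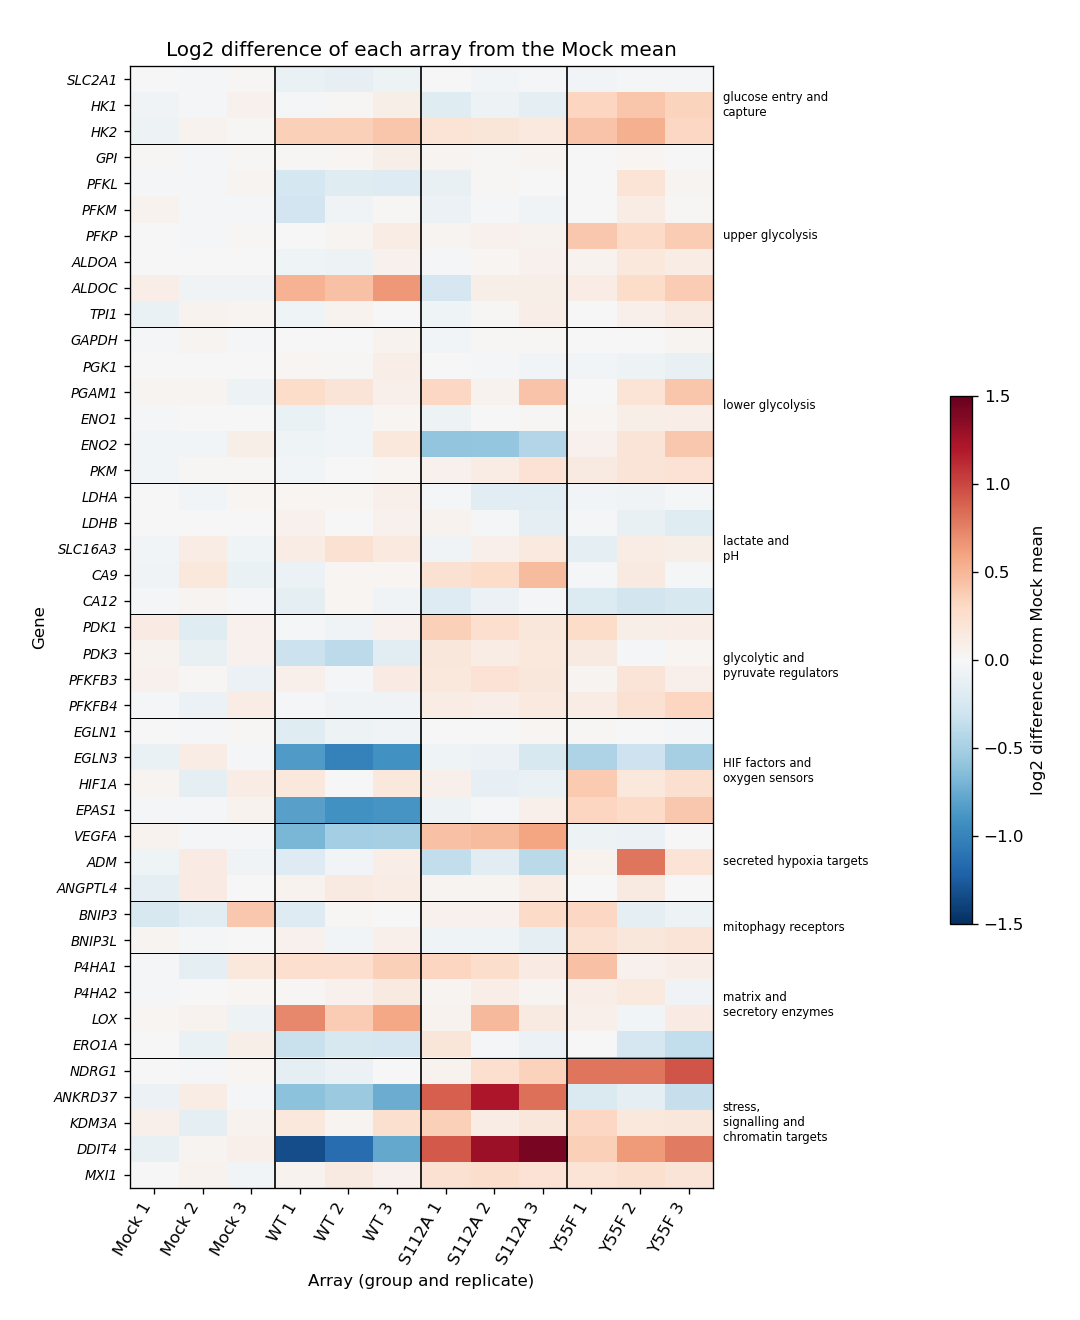
Log2 difference of each of the 12 arrays (columns, by group and replicate) from the Mock mean for each of the 43 genes (rows, ordered by role); red is above and blue below the Mock mean, on a colour scale that ends 1.5 units on either side. DDIT4 and ANKRD37 are blue in the 3 WT arrays and red in the 3 S112A arrays, while the rows of SLC2A1, GPI, GAPDH and PGK1 stay pale in all arrays.

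**Figure D2:**
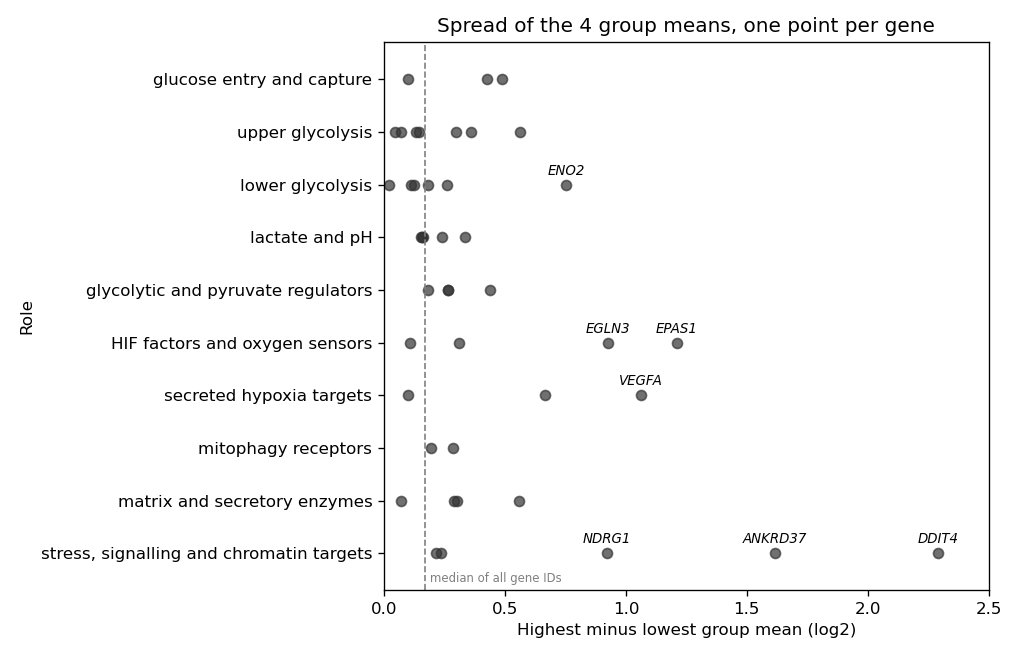
Highest minus lowest group mean on the log2 scale (horizontal axis) for each of the 43 genes (points), grouped by role (vertical axis); the dashed line is the median over all gene IDs, 0.17. DDIT4, ANKRD37, EPAS1, VEGFA, EGLN3, NDRG1 and ENO2 lie farthest to the right, from 2.29 to 0.75.

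The 3 comparisons with Mock asked which of these genes changed with each construct. They share the Mock arrays, so a deviation of Mock enters all of them. In WT cells 3 genes rose (HK2, ALDOC and LOX) and 7 fell (DDIT4, EGLN3, EPAS1, ANKRD37, VEGFA, PDK3 and PFKL), 23.3% of the 43 where 9.44% of all gene IDs passed, 5.3% upward and 4.14% downward. Among the IDs outside the lowest 33.3% by mean, 13.5% passed. At least 1.5-fold was reached by 4 of the 10 genes, all downward (DDIT4, EGLN3, EPAS1 and ANKRD37), and by 2.85% of all IDs. In S112A cells 5 rose (DDIT4, ANKRD37, VEGFA, CA9 and MXI1) and ENO2 alone fell, 14.0% of the 43 against 13% of all IDs (5.88% upward and 7.12% downward) and 18.5% of the better expressed ones, so that the share was near the background. With array weights 19 genes passed, 44.2%, where 36.6% of all IDs and 44.8% of the better expressed ones did. That fit leaned mostly on 1 Mock and 1 S112A array, with weights of 5.31 and 6.06. Without weights DDIT4 and ANKRD37 reached 1.5-fold, as did 2.99% of all IDs. In Y55F cells 10 rose and 2 fell, 27.9% against 16.1% of all IDs (8.18% upward and 7.95% downward) and 23.3% of the better expressed ones. NDRG1 and DDIT4 reached 1.5-fold, as did 3.62% of all IDs. The risers were NDRG1, DDIT4, HK2, PFKP, HK1, EPAS1, PFKFB4, MXI1, BNIP3L and PKM, and the genes that fell were EGLN3 and CA12. Without Mock replicate 2 this count for Y55F cells was 7, and the share of all gene IDs in that fit was not computed. The median difference over the 43 genes was 0.0017 in WT, 0.03 in S112A and 0.07 in Y55F cells, beside 0.02, -0.01 and 0.00045 over all gene IDs.

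The direct comparisons asked whether the constructs differed from each other. S112A cells differed from WT cells at 17 genes, 12 higher and 5 lower, or 39.5% where 21% of all gene IDs (9.19% upward and 11.9% downward) and 29.7% of the better expressed ones passed. With each array centred on its median the split was 12 higher and 2 lower. The count was 8 without WT replicate 1 and 10 without WT replicate 3, S112A replicate 2 or S112A replicate 3. Shares of all gene IDs were not computed for these fits or for centred arrays. The 5 differences of at least 1.5-fold were all upward, in DDIT4, ANKRD37, VEGFA, EPAS1 and EGLN3, and 6.56% of all IDs differed that much. Y55F cells differed from WT cells at 15 genes, 13 higher and 2 lower, 34.9% against 19.2% of all IDs (8.79% upward and 10.4% downward) and 27.5% of the better expressed ones. DDIT4, EPAS1 and NDRG1 reached 1.5-fold, as did 4.63% of all IDs. Y55F and S112A cells differed at 14 genes, 9 higher and 5 lower in Y55F cells, 32.6% against 18.9% of all IDs (9.92% upward and 9.01% downward) and 26.9% of the better expressed ones. ENO2, ADM and NDRG1 were at least 1.5-fold higher and ANKRD37 and DDIT4 at least 1.5-fold lower in Y55F cells, and 4.75% of all IDs reached 1.5-fold. The median differences over the 43 genes were 0.05, 0.11 and -0.0017 in these 3 comparisons, beside -0.03, -0.01 and 0.01 over all gene IDs.

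SLC2A1 (ENSG00000117394), the main glucose transporter of many tumour cells, stayed close to 1 level. Its Mock arrays read 13.71, 13.70 and 13.72, the WT arrays 13.60, 13.59 and 13.64, the S112A arrays 13.71, 13.67 and 13.68 and the Y55F arrays 13.67, 13.69 and 13.69. The WT arrays lay below all others, and their difference from Mock, -0.10 ± 0.04 (SE), did not pass (adjusted p = 0.206, and 0.0437 with array weights). Its 95% confidence interval ran from -0.19 to -0.01. Hexokinases, which trap glucose in the cell as glucose 6-phosphate, did move. HK2 (ENSG00000159399), the inducible form common in tumours, read 9.99, 10.12 and 10.07 in Mock, 10.42, 10.42 and 10.48 in WT, 10.27, 10.24 and 10.21 in S112A and 10.49, 10.60 and 10.37 in Y55F cells. All arrays of the 3 constructs lay above the Mock arrays. The rise was 1.3-fold in WT (adjusted p = 0.00135) and 1.34-fold in Y55F cells (adjusted p = 0.00043). The S112A difference of 0.18 had an adjusted p of 0.0796, but 0.0377 with centred arrays and 0.0464 without Y55F replicate 3. HK1, the housekeeping form, stood at 10.09 ± 0.05 in Y55F cells against 9.74 ± 0.06 in Mock, a 1.28-fold rise (adjusted p = 0.00053). HK1 in Y55F cells also exceeded WT cells 1.25-fold (adjusted p = 0.000856) and S112A cells 1.40-fold (adjusted p = 3.9e-05).

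S112A cells had the lowest hexokinase levels among the constructs. HK2 was 1.15-fold lower in S112A than in WT cells (adjusted p = 0.0361), a call that ended without any WT or S112A array, at -0.21 to -0.18. It also ended with centred arrays (-0.16, adjusted p = 0.0866). HK2 was 1.18-fold higher in Y55F than in S112A cells (adjusted p = 0.0133), a call that ended without Y55F replicate 2 (0.19). HK1 was 1.12-fold lower in S112A than in WT cells (adjusted p = 0.0488). Every array other than Mock replicate 3 ended that call when left out, at -0.19 to -0.13. It also ended with centred arrays (-0.12, adjusted p = 0.156) and with array weights (-0.11, adjusted p = 0.067).

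Phosphofructokinase commits sugar to glycolysis, and its 3 isoforms behaved unequally. PFKP, the platelet type, was at 11.07 ± 0.02 in Mock, 11.12 ± 0.05 in WT, 11.12 ± 0.01 in S112A and 11.43 ± 0.06 in Y55F cells. Every Y55F array lay above every other array, and the rise over Mock was 1.28-fold (adjusted p = 0.000273). Against WT and S112A cells PFKP was 1.24-fold higher each (adjusted p = 0.000622 and 0.000624). PFKL, the liver type, was 1.16-fold lower in WT than in Mock cells (adjusted p = 0.0483). That call ended without any Mock array, any WT array, S112A replicate 2 or 3 or Y55F replicate 3, where the differences were -0.23 to -0.19. PFKL in Y55F cells exceeded WT cells 1.23-fold (adjusted p = 0.00404). In S112A cells it exceeded WT cells 1.14-fold (adjusted p = 0.0484). Of the 12 arrays 9, all except S112A replicate 1 and Y55F replicates 1 and 2, ended that call when left out, at 0.16 to 0.20. Repeated quantile normalization also ended it (0.19, adjusted p = 0.05265). PFKM, the muscle type, passed in none of the 6 comparisons, with group means of 10.70 to 10.84. Aldolase splits the sugar, and its C form, best known from brain, rose in WT cells from 8.83 ± 0.08 to 9.37 ± 0.10, 1.45-fold (adjusted p = 0.00402). ALDOC was 1.48-fold lower in S112A than in WT cells (adjusted p = 0.00137). Its difference of 0.26 between Y55F and Mock (adjusted p = 0.121) and of -0.28 between Y55F and WT (adjusted p = 0.0766) passed without S112A replicate 1, at unchanged size and adjusted p of 0.0458 and 0.0264. The difference of 0.28 between Y55F and S112A (adjusted p = 0.0776) was 0.36 without Y55F replicate 1 (adjusted p = 0.039).

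The remaining early enzymes gave no call in any comparison: ALDOA, the main aldolase, GPI, which turns glucose 6-phosphate into fructose 6-phosphate, and TPI1, which interconverts the triose phosphates. Their spreads of group means were 0.13, 0.05 and 0.07. ALDOA in Y55F against WT cells, 0.13 with adjusted p = 0.109, passed without WT replicate 3 (0.18, adjusted p = 0.0363). In the payoff stage GAPDH, PGK1, PGAM1 and ENO1 also passed nowhere. GAPDH, often used as a reference gene, lay between 13.86 and 13.95 in all 12 arrays. PGK1 (ENSG00000102144), which makes the first ATP of the route, read 13.14, 13.13 and 13.13 in Mock, 13.16, 13.15 and 13.23 in WT, 13.14, 13.10 and 13.09 in S112A and 13.08, 13.06 and 13.02 in Y55F cells. Its Y55F arrays lay below the others, with a difference of -0.13 from WT (95% confidence interval -0.22 to -0.03, adjusted p = 0.0697). PGAM1 varied more between arrays, with an SD of up to 0.21, and its difference of 0.26 between S112A and Mock had an interval of 0.02 to 0.50 (adjusted p = 0.185). SLC2A1, GAPDH, ENO1, LDHA and LDHB lie within 1 unit of the highest values on their arrays, where log2 values can be compressed. So do PGK1 in at least the Mock and WT arrays and EPAS1 in at least Y55F replicate 3. Whether that touched these genes was not tested.

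ENO2 (ENSG00000111674), the enolase typical of neurons, was the enzyme with the widest spread. It read 10.18, 10.17 and 10.30 in Mock, 10.15, 10.18 and 10.38 in WT, 9.63, 9.64 and 9.78 in S112A and 10.28, 10.41 and 10.62 in Y55F cells. The S112A arrays lay below all 9 others, and the other 3 groups overlapped. ENO2 fell 1.45-fold in S112A cells against Mock (adjusted p = 0.00154) and was 1.47-fold lower there than in WT cells (adjusted p = 0.000631). In Y55F cells it was 1.68-fold above S112A cells (adjusted p = 7.93e-05). The 0.22 difference between Y55F and Mock had an adjusted p of 0.142, which was 0.0485 without Y55F replicate 1, at 0.29. PKM, pyruvate kinase, rose 1.13-fold in Y55F cells (adjusted p = 0.0348). That call ended without Mock replicate 1, 2 or 3, WT replicate 2, S112A replicate 2 or Y55F replicate 2 or 3, at differences of 0.16 to 0.19. Against WT cells the excess was also 1.13-fold (adjusted p = 0.0283), and it was not called without WT replicate 1 or 2 or Y55F replicate 2 or 3, at 0.16 to 0.19.

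**Figure D3:**
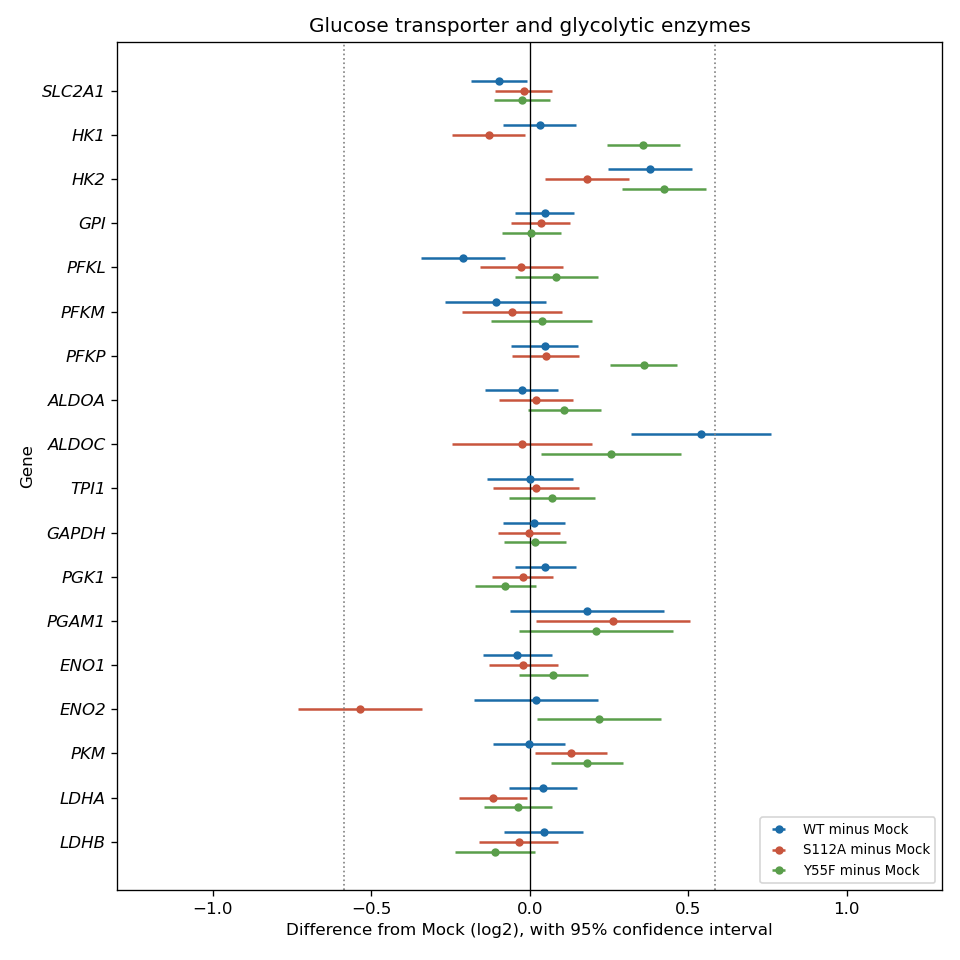
Difference from Mock (horizontal axis, log2) with its 95% confidence interval for SLC2A1 and the enzymes to lactate (vertical axis), in WT, S112A and Y55F cells (colours); dotted lines mark 1.5-fold. No point estimate reaches the dotted lines, and the farthest are ALDOC in WT cells (0.54) and ENO2 in S112A cells (-0.53).

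The step to lactate changed little. LDHA (ENSG00000134333), the isoform that favours lactate formation and a classical HIF target, read 13.58, 13.54 and 13.61 in Mock, 13.60, 13.60 and 13.65 in WT, 13.54, 13.42 and 13.42 in S112A and 13.54, 13.52 and 13.56 in Y55F cells. No comparison with Mock passed, and the interval for WT against Mock was -0.06 to 0.15. For S112A against Mock the difference was -0.12, with an interval of -0.22 to -0.01 (adjusted p = 0.18), and 1 of 19 alternatives gave a call. S112A cells were 1.12-fold below WT cells (adjusted p = 0.0373). That call ended without Mock replicate 1, WT replicate 1, 2 or 3, or S112A replicate 2 or 3, at differences of -0.17 to -0.14. It also ended with centred arrays (-0.12, adjusted p = 0.218). LDHB and the lactate exporter SLC16A3 passed in no comparison, with spreads of group means of 0.15 and 0.16.

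CA9 and CA12 encode carbonic anhydrases at the cell surface that help tumour cells to control pH, and CA9 is among the genes most tightly tied to HIF1A. CA9 (ENSG00000107159) read 7.37, 7.57 and 7.32 in Mock, 7.33, 7.45 and 7.45 in WT, 7.64, 7.69 and 7.90 in S112A and 7.40, 7.56 and 7.40 in Y55F cells. All S112A arrays lay above all others, and the other 3 groups overlapped. The S112A level was 1.25-fold above Mock (adjusted p = 0.025), 1.26-fold above WT (adjusted p = 0.0137) and 1.23-fold above Y55F cells (adjusted p = 0.0303). These calls rest on few arrays. Against Mock the call ended without Mock replicate 1 (difference 0.30), Mock replicate 3 (0.27) or S112A replicate 3 (0.25), and against WT without WT replicate 1 (0.29) or S112A replicate 3 (0.26). Against Y55F it ended without S112A replicate 2 or 3 or Y55F replicate 1 or 3, at differences of -0.32 to -0.22. CA12 fell 1.18-fold in Y55F cells (adjusted p = 0.0129), a call that ended without Mock replicate 2 or Y55F replicate 2, at -0.22 each. Against WT cells it was 1.14-fold lower (adjusted p = 0.0396). Any of 8 arrays ended that call when left out (Mock replicates 1 and 3, WT replicates 2 and 3, S112A replicate 2 and every Y55F array), at -0.21 to -0.15. It also ended with centred arrays and with repeated quantile normalization, at -0.14 each (adjusted p = 0.113 and 0.1005).

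Among the regulators, the pyruvate dehydrogenase kinases hold pyruvate back from the mitochondria, and the PFKFB enzymes set the level of fructose 2,6-bisphosphate, which activates phosphofructokinase. PDK3 stood at 10.31 ± 0.10 in Mock, 10.02 ± 0.12 in WT, 10.45 ± 0.03 in S112A and 10.35 ± 0.08 in Y55F cells. The WT arrays lay below all others. S112A cells exceeded them 1.36-fold (adjusted p = 0.000704) and Y55F cells 1.26-fold (adjusted p = 0.00534). Its fall from Mock to WT, 1.22-fold with adjusted p = 0.0224, was not called without Mock replicate 1 (-0.27), Mock replicate 3 (-0.26), WT replicate 1 (-0.28) or WT replicate 2 (-0.24). PDK1, a HIF target, exceeded its WT level 1.2-fold in S112A cells (adjusted p = 0.0445). That call ended when any of 8 arrays was left out (every WT array, S112A replicates 1 and 2, Mock replicate 3 and Y55F replicates 2 and 3), at differences of 0.21 to 0.30. With centred arrays S112A exceeded WT cells by 0.30, and this was not called (adjusted p = 0.0528). Against Mock the same cells differed by 0.26 (adjusted p = 0.0668), and by 0.32 without Mock replicate 1 (adjusted p = 0.0486). PFKFB4 rose 1.16-fold in Y55F cells against Mock (adjusted p = 0.0366), with groups that touched: its lowest Y55F array, 7.85, lay below the highest Mock array, 7.86. This call ended without Mock replicate 1 or 2, WT replicate 1 or 2, S112A replicate 2 or Y55F replicate 2 or 3, at 0.17 to 0.22. Against WT cells the difference was 0.26 (adjusted p = 0.0117), and 0.21 without Y55F replicate 3, where it was not called. PFKFB3 passed in none of the 6 comparisons, and its S112A difference from Mock, 0.18, had an adjusted p of 0.0754 (0.024 with centred arrays).

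The RNA of the 2 HIF alpha subunits differed in behaviour. HIF1A (ENSG00000100644) read 11.88, 11.7 and 11.95 in Mock, 12.01, 11.85 and 12.01 in WT, 11.92, 11.72 and 11.74 in S112A and 12.24, 12 and 12.09 in Y55F cells. No comparison with Mock passed. The WT interval was -0.08 to 0.30, the S112A interval -0.24 to 0.14 and the Y55F difference 0.26 (adjusted p = 0.0623). For Y55F the adjusted p was 0.0479 without S112A replicate 1, and 5 of the 19 alternatives gave a call. Y55F cells exceeded S112A cells 1.24-fold (adjusted p = 0.0239), and this call ended without S112A replicate 2 (0.27), S112A replicate 3 (0.29), Y55F replicate 1 (0.25) or Y55F replicate 3 (0.32).

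EPAS1 (ENSG00000116016), which encodes HIF2 alpha, moved in opposite directions in WT and Y55F cells. It read 12.76, 12.76 and 12.84 in Mock, 11.97, 11.88 and 11.90 in WT, 12.71, 12.76 and 12.87 in S112A and 13.11, 13.08 and 13.19 in Y55F cells. The WT arrays lay below every other array, the Y55F arrays lay above every other array, and Mock and S112A overlapped. EPAS1 fell 1.83-fold in WT cells (adjusted p = 7.44e-07) and rose 1.27-fold in Y55F cells (adjusted p = 0.00106). In S112A cells the difference was -0.01, with an interval of -0.13 to 0.11. Y55F cells exceeded WT cells 2.31-fold (adjusted p = 3.01e-08) and S112A cells 1.27-fold (adjusted p = 0.000703), and S112A cells exceeded WT cells 1.82-fold (adjusted p = 2.93e-07).

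EGLN1 (ENSG00000135766), the main HIF prolyl hydroxylase in well oxygenated cells, read 10.06, 10.03 and 10.06 in Mock, 9.87, 9.97 and 9.99 in WT, 10.05, 10.04 and 10.07 in S112A and 10.07, 10.05 and 10.03 in Y55F cells. Its WT arrays lay below all 9 others. The difference between WT and Mock was -0.10 (adjusted p = 0.253, and 0.0495 with array weights), and in S112A and Y55F cells the intervals were -0.10 to 0.10. EGLN3 (ENSG00000129521), which HIF itself induces, read 10.86, 11.07 and 10.94 in Mock, 10.10, 9.95 and 10.05 in WT, 10.90, 10.86 and 10.72 in S112A and 10.49, 10.64 and 10.46 in Y55F cells. Its WT arrays lay below all others and its Y55F arrays between those of WT and S112A, while Mock and S112A overlapped. EGLN3 fell 1.90-fold in WT (adjusted p = 6.04e-06) and 1.35-fold in Y55F cells (adjusted p = 0.00184). The S112A difference was -0.13, with an interval of -0.30 to 0.03. S112A cells exceeded WT cells 1.73-fold (adjusted p = 8.74e-06) and Y55F cells exceeded them 1.41-fold (adjusted p = 0.00053). Y55F cells were 1.23-fold below S112A cells (adjusted p = 0.0152), a call that ended without S112A replicate 1 (-0.26), S112A replicate 2 (-0.28) or Y55F replicate 3 (-0.26).

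VEGFA (ENSG00000112715), the growth factor of blood vessels and a standard HIF target, was lowest in WT and highest in S112A cells. It read 9.85, 9.76 and 9.77 in Mock, 9.11, 9.29 and 9.30 in WT, 10.23, 10.27 and 10.38 in S112A and 9.72, 9.71 and 9.79 in Y55F cells. Mock and Y55F overlapped, the WT arrays lay below them and the S112A arrays above. VEGFA fell 1.48-fold in WT cells (adjusted p = 8.97e-05) and rose 1.42-fold in S112A cells (adjusted p = 0.000223). The Y55F difference was -0.06, with an interval of -0.20 to 0.08. S112A cells exceeded WT cells 2.09-fold (adjusted p = 1.7e-07) and Y55F cells 1.47-fold (adjusted p = 5.47e-05), and Y55F cells exceeded WT cells 1.42-fold (adjusted p = 0.000134).

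ANKRD37 (ENSG00000186352), an ankyrin repeat gene known to be induced by HIF1, had the same order of group means. It read 9.86, 10.06 and 9.92 in Mock, 9.33, 9.39 and 9.20 in WT, 10.84, 11.16 and 10.78 in S112A and 9.73, 9.80 and 9.60 in Y55F cells. No 2 groups overlapped. It fell 1.56-fold in WT (adjusted p = 0.00101) and rose 1.97-fold in S112A cells (adjusted p = 4.05e-05), and S112A cells exceeded WT cells 3.07-fold (adjusted p = 1.96e-07) and Y55F cells 2.32-fold (adjusted p = 3.91e-06). The Y55F difference from Mock was -0.23 (adjusted p = 0.153). Y55F cells exceeded WT cells 1.32-fold (adjusted p = 0.0117), a call that ended without WT replicate 3 (0.35) or Y55F replicate 2 (0.36).

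DDIT4 (ENSG00000168209) encodes REDD1, an inhibitor of mTORC1 that responds to hypoxia and other stress, and had the widest spread of group means of the 43 genes. It read 9.35, 9.50 and 9.53 in Mock, 8.13, 8.32 and 8.69 in WT, 10.38, 10.75 and 10.88 in S112A and 9.82, 10.10 and 10.24 in Y55F cells. No groups overlapped, in the order WT, Mock, Y55F and S112A. DDIT4 fell 2.11-fold in WT cells (adjusted p = 0.00066) and rose 2.31-fold in S112A cells (adjusted p = 0.000259). S112A cells exceeded WT cells 4.89-fold (adjusted p = 5.53e-07), with an interval of 3.86-fold to 6.20-fold, and Y55F cells exceeded WT cells 3.18-fold (adjusted p = 1.38e-05). The 1.51-fold rise in Y55F cells against Mock (adjusted p = 0.0222) was less firm. It was not called without Mock replicate 1 (0.54), Mock replicate 2 (0.61), Y55F replicate 2 (0.57) or Y55F replicate 3 (0.50). Y55F cells were 1.54-fold below S112A cells (adjusted p = 0.0147), a call that ended without S112A replicate 2 (-0.58), S112A replicate 3 (-0.51) or Y55F replicate 1 (-0.50).

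NDRG1 (ENSG00000104419), a stress and differentiation gene that HIF induces, had another order. It read 11.63, 11.60 and 11.67 in Mock, 11.50, 11.55 and 11.63 in WT, 11.69, 11.88 and 11.99 in S112A and 12.43, 12.43 and 12.58 in Y55F cells. The Y55F arrays stood above all others. NDRG1 rose 1.80-fold in Y55F cells (adjusted p = 9.91e-06), which exceeded WT cells 1.90-fold (adjusted p = 4.02e-06) and S112A cells 1.55-fold (adjusted p = 7.65e-05). The WT difference from Mock was -0.08 with an interval of -0.24 to 0.09. The S112A difference from Mock, 0.22, had an adjusted p of 0.0857, but 0.0447 with centred arrays and 0.0122 without S112A replicate 1. S112A exceeded WT cells 1.23-fold (adjusted p = 0.0133), a call that ended without WT replicate 1 (0.26), S112A replicate 2 (0.28) or S112A replicate 3 (0.23).

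ADM (ENSG00000148926), the vasodilator adrenomedullin, read 9.53, 9.73 and 9.54 in Mock, 9.41, 9.57 and 9.70 in WT, 9.23, 9.44 and 9.19 in S112A and 9.65, 10.40 and 9.80 in Y55F cells. One Y55F array stood apart from the other 2, and the Y55F arrays lay above those of S112A. Only Y55F against S112A passed, at 1.58-fold (adjusted p = 0.0108). With the fit restricted to those 2 groups the adjusted p was 0.0579, and without Y55F replicate 2 the log2 difference was 0.44 in place of 0.66 (adjusted p = 0.0143). Against WT cells the difference of 0.39 (adjusted p = 0.117) was 0.54 without Y55F replicate 1 (adjusted p = 0.0309). ANGPTL4, a secreted lipase inhibitor, passed in no comparison, with group means of 6.94 to 7.04.

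**Figure D4:**
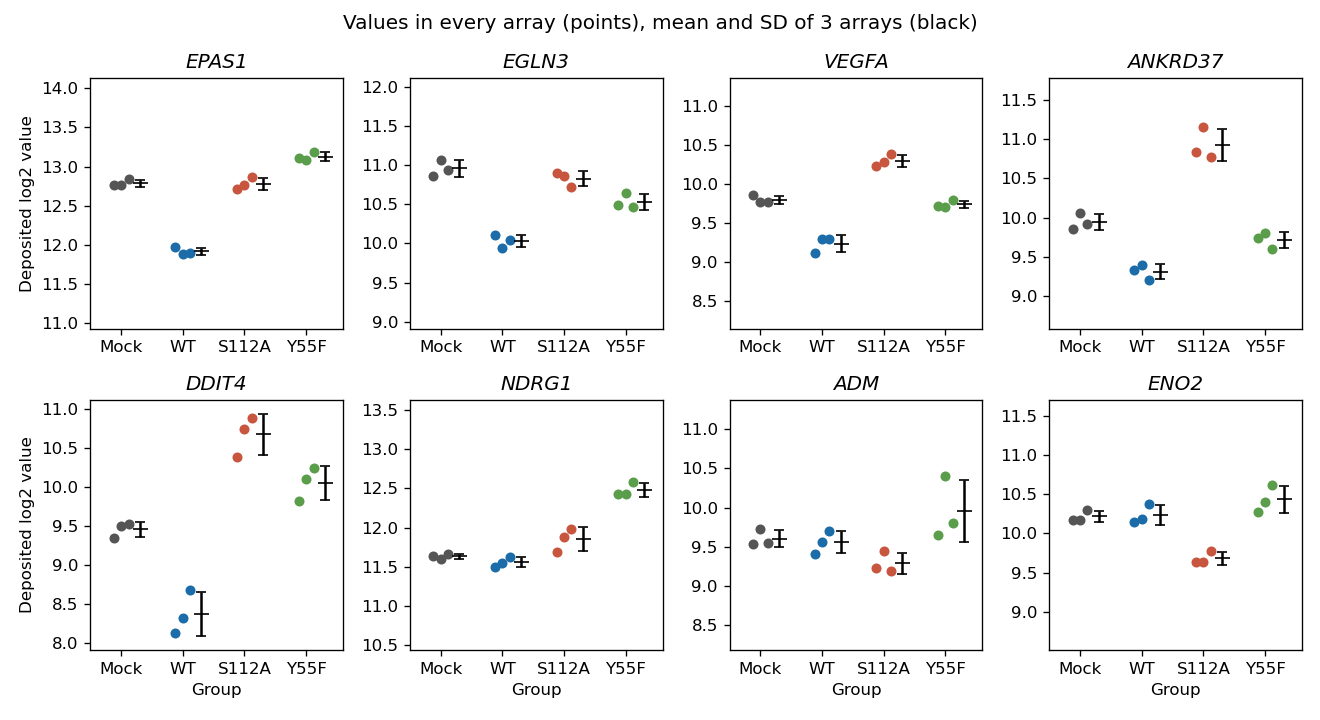
Deposited log2 value (vertical axis, 3.2 units in every panel) of 8 genes in the 3 arrays of each group (points), with mean and SD in black. VEGFA, ANKRD37 and DDIT4 are lowest in WT and highest in S112A cells, EPAS1 and NDRG1 are highest in Y55F cells, and ENO2 is lowest in S112A cells.

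HIF binds DNA at a short core, and the RefSeq promoter windows of GRCh38.p14, from 250 bases before to 50 after each gene start, were searched on both strands for the letters ACGTG and GCGTG. Of the 43 genes 40 had a window, and VEGFA, NDRG1 and BNIP3L had none. ACGTG was found in 18 of the 40 windows, 45%, and in 21.6% of the 27305 windows in the table. GCGTG was found in 20 windows, 50%, against 36.3%. At least 1 of the 2 was found in 30 windows, 75.0%, against 48.4%. Only the first window listed for each symbol was searched. The windows of the table were not matched to these genes in base composition or expression, and no share was tested. These matches describe letters and not bound sites, and HIF is known to act also from outside such windows. The windows of ANKRD37 and DDIT4 are printed because these genes differed most between WT and S112A cells, that of LDHA because it holds the most ACGTG matches, 5, in a gene that changed little, and that of EGLN3 because a gene that fell in WT cells has no match in it. They run 5′ to 3′ along the gene's strand at chr4:185396591-185396890 (ANKRD37, plus strand), chr10:72273674-72273973 (DDIT4, plus), chr11:18394313-18394612 (LDHA, plus) and chr14:33951025-33951324 (EGLN3, minus), with capitals for each match on either strand. In a stretch CACGTG, the E-box bound by MYC family factors, the matches of the 2 strands overlap.
ANKRD37: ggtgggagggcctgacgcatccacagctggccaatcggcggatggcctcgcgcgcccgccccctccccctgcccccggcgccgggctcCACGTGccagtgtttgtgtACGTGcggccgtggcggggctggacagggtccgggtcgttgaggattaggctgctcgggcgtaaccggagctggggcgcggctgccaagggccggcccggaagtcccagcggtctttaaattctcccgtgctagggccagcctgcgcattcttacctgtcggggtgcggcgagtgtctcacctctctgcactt
DDIT4: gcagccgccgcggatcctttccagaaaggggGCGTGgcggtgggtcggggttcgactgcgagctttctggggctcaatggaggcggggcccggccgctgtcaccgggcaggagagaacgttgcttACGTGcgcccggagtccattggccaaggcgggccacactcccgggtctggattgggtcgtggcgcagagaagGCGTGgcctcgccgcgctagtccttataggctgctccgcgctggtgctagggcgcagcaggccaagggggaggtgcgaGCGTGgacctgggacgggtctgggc
LDHA: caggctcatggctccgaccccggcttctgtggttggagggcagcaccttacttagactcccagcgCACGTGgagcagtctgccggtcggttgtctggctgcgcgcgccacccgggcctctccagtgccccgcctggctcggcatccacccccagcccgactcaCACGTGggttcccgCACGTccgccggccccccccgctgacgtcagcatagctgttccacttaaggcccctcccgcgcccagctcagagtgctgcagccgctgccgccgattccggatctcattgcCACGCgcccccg
EGLN3: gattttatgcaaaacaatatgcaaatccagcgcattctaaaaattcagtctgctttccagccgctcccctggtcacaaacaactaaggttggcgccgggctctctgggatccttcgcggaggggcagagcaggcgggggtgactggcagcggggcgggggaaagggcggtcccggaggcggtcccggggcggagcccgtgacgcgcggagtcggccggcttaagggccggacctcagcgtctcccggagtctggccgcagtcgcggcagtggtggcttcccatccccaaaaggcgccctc
ANKRD37 holds 3 ACGTG matches, of which 2 overlap in 1 CACGTG, and DDIT4 holds 1 ACGTG and 3 GCGTG. LDHA holds 5 ACGTG, 4 of them in 2 CACGTG stretches, and 1 GCGTG. EGLN3 holds none. The spread of group means was 1.62 for ANKRD37, 2.29 for DDIT4, 0.16 for LDHA and 0.92 for EGLN3. These windows were picked partly by such differences, and whether matches go with the spread over all windows was not tested.

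The mitophagy receptors, which mark mitochondria for removal in hypoxia, changed little. BNIP3L stood at 12.71 ± 0.04 in Mock, 12.74 ± 0.07 in WT, 12.62 ± 0.04 in S112A and 12.91 ± 0.03 in Y55F cells, with the Y55F arrays above all others. Y55F cells exceeded S112A cells 1.22-fold (adjusted p = 0.00141) and WT cells 1.12-fold (adjusted p = 0.0374). The latter call ended when any of 7 arrays was left out (Mock replicate 3, WT replicates 1 and 2, S112A replicate 2 and every Y55F array), at 0.12 to 0.18. Repeated quantile normalization also ended this BNIP3L call (0.14, adjusted p = 0.0533). Its 1.14-fold rise in Y55F cells over Mock (adjusted p = 0.0174) was not called without Mock replicate 2 (0.18), Mock replicate 3 (0.19) or Y55F replicate 1 (0.18). BNIP3 lay low on the scale, at 4.90 to 5.55 in all arrays, and passed in no comparison, where an SD of 0.35 in Mock limits what could be seen.

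Of the matrix and secretory enzymes, LOX, which cross-links collagen, rose in WT cells. It stood at 5.69 ± 0.07 in Mock, 6.25 ± 0.17 in WT, 5.92 ± 0.23 in S112A and 5.74 ± 0.08 in Y55F cells, all below the array medians, so that its folds may be compressed. The rise in WT cells was 1.47-fold (adjusted p = 0.00581), and Y55F cells were 1.42-fold below WT cells (adjusted p = 0.00627). For S112A against WT the difference was -0.33 (adjusted p = 0.0533), and -0.46 without S112A replicate 2 (adjusted p = 0.0049) and -0.42 without WT replicate 2 (adjusted p = 0.0246). With array weights it was only -0.11 (adjusted p = 0.458), and without WT replicate 1 or S112A replicate 1 it was -0.25 each. ERO1A, an oxidase of the endoplasmic reticulum, exceeded its WT level 1.23-fold in S112A cells (adjusted p = 0.0366), a call that ended when any of 6 arrays was left out (every WT array, S112A replicates 1 and 2 and Mock replicate 1), at 0.23 to 0.32. Without Y55F replicate 1 ERO1A also passed in WT against Mock (-0.28, adjusted p = 0.0414 in place of 0.099), Y55F against Mock (-0.31, 0.0301 in place of 0.184) and Y55F against S112A cells (-0.33, 0.0178 in place of 0.118). Of the 19 alternatives, 4, 2 and 2 gave a call in these 3 comparisons of ERO1A. The collagen prolyl hydroxylases P4HA1 and P4HA2 passed in no comparison, nor did KDM3A, a histone demethylase induced by HIF, but P4HA1 in WT against Mock (0.29, adjusted p = 0.121) passed without Y55F replicate 1 (adjusted p = 0.0396). MXI1, an antagonist of MYC, rose 1.18-fold in S112A (adjusted p = 0.00415) and 1.16-fold in Y55F cells (adjusted p = 0.00658), and the WT difference of 0.09 had an interval of -0.01 to 0.19. S112A exceeded WT cells 1.11-fold (adjusted p = 0.0353), a call that ended without Mock replicate 1, WT replicate 1 or 3 or any S112A array, at 0.14 to 0.16.

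Over the 6 comparisons 74 of 258 differences passed, in 25 of the 43 genes, and 18 genes passed in none. These 25 are 58.1% of the genes, where 34.6% of all gene IDs and 48.7% of the better expressed ones passed in at least 1 comparison. Of the 74 calls 46 held under every alternative tried. They included every call of EPAS1 and VEGFA, all calls of DDIT4 and ANKRD37 other than those named above as lost, and every call of ENO2, ALDOC, PFKP and LOX. LOX had 18 alternatives in place of 19, because the filter on low means left it out.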

How the data were processed

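RNA levels were measured in 12 samples of total RNA, 3 for each of the Mock, WT, S112A and Y55F groups, which were taken from the sample titles. Each deposited value is on a log2 scale, 1 for each Ensembl gene ID and array, a scale read from the values. The submitters' processing notes name RMA (background correction, quantile normalization and probe summary) and the affy package without versions. Array model, annotation and the treatment of probes shared with pseudogenes or paralogs of the glycolytic enzymes are not given in the sources used here. Per the labels there were independent experiments in triplicate, with replicate numbers tied to none, so p-values reflect only how these arrays vary, possibly for technical reasons, and 3 arrays a group limit the precision.

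Group means were estimated for all 24916 IDs from the 12 arrays together with limma 3.58.1 in R 4.3.3 (8 residual degrees of freedom). The 6 comparisons and the F test were adjusted by Benjamini-Hochberg over all IDs, with a threshold of 0.05, and intervals are 95% confidence intervals. The fit was tested on simulated data. Genes were named with values in every array where they passed with at least 1.5-fold in any comparison, which gave 8, and 10 genes were named whatever their values. Some genes met both rules, which gave 15 in all. The members, lists and rules were chosen with earlier results of these data known. Symbols come from the member list, since 0 of the IDs matched the RefSeq table used here, so that the other pathway genes, cell type markers and SPRY2 planned for were not analysed. Same-numbered arrays had correlated deviations, above 0.1 in every pair, for WT and Mock (0.14, 0.46 and 0.36) and for Y55F and S112A (0.61, 0.12 and 0.40). By the rule used these comparisons count as paired, from the data and not the labels. Arrays of unlike number were not correlated, so whether the numbers mark shared experiments was not tested. Alternatives were a filter on low means, fits to the compared groups alone, array centring, repeated quantile normalization, the replicate block, array weights and leaving out each array.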

Additional observations from a re-analysis of the deposited data

How the results depend on the processing

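Of 4890 values of single genes recomputed with another setting, 4649 gave the same verdict, 163 lost the call, 78 gained one and 0 changed direction with a call. Losses named in the Results are mostly those on leaving out 1 array, and some of those calls ended under other alternatives too. Array weights raised the number of genes called in WT cells against Mock to 16 and in S112A cells against Mock to 19. The cause was not tested. The share of all gene IDs called rose as well, from 9.44% to 17% and from 13% to 36.6%. Mock replicate 1 had a weight of 5.31 (the others 0.525 and 0.698) and S112A replicate 2 a weight of 6.06 (the others 0.528 and 0.467). Weighted results with these groups, those of SLC2A1 and EGLN1 among them, therefore lean mostly on 1 array in each such group. Requiring at least 1.5-fold, which can only lower a count, left 4, 2 and 2 genes against Mock in WT, S112A and Y55F cells, 5 and 3 genes against WT in S112A and Y55F cells, and 5 genes between Y55F and S112A. Leaving out 1 array gave, in the same order, 8 to 12, 5 to 7, 7 to 14, 8 to 16, 11 to 16 and 10 to 14 genes and 17 to 22 for the F test, where fewer samples are fitted. Shares of all gene IDs were not computed for the fits without 1 array, so whether calls over all IDs moved alike is not known. With the replicate block as a fixed term the counts were 10, 9, 16, 17, 17 and 14, with 25 for the F test, where 10.7%, 14.6%, 18.4%, 23.3%, 21.7%, 21.2% and 32.2% of all gene IDs passed. In the 2 comparisons counted as paired by the rule used, WT with Mock and Y55F with S112A, it changed no call. Elsewhere that rule was not met, and the numbers were not shown to pair the arrays. The calls gained under the block included HIF1A (adjusted p = 0.00948), ENO2 (0.0134) and ANKRD37 (0.0265) in Y55F against Mock. They also included NDRG1 (0.0259) in S112A against Mock, and others are not listed here. Signal over background was not analysed, which limits low genes such as BNIP3 and LOX.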
